A study of Mus musculus with 9 samples.

Results

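The genes of the cytosolic ribosome were followed while the upper lip and primary palate of the mouse fuse. Members were all protein_coding rows of the count table with a symbol of the Rps, Rpl, Rpsa or Rplp series, leaving out the Rps6k kinases and Rps19bp1. This gave 93 of 54532 genes, of which 34 carried Rps names and 59 Rpl names. Among them, 8 rows bear a pseudogene-like name (-ps) but are annotated as protein_coding, and they were kept. The tissue was the lambdoidal junction of untreated C57BL/6J embryos, where the nasal and maxillary prominences meet. It was dissected on 3 embryonic days (E10.5, E11.5, E12.5), each stage had 3 libraries, and a library came from a pool of 17 to 18 embryos. A pool averages its embryos, so the spread between libraries is a spread between pools. Nothing in the labels ties a replicate number to a shared litter or day.

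A ribosome has a small subunit, built from rRNA and the Rps proteins, and a large subunit, built from rRNA and the Rpl proteins. The acidic proteins Rplp0, Rplp1 and Rplp2 form the stalk that recruits elongation factors. Ribosomal protein mRNAs are among the most abundant in growing cells, and many start with a C followed by a run of pyrimidines, the 5′ TOP tract, through which mTOR signalling and Larp1 control their translation. Loss of a copy of many of these genes causes Diamond-Blackfan anemia in humans, which can include craniofacial defects, and neural crest cells of the face are known to be sensitive to faulty ribosome production. Ribosomal protein genes have also left many processed pseudogenes in the genome, which are intronless copies that can take up reads of the parent gene.

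The start of a ribosomal protein gene is shown by 6 members whose results are described here. Each sequence runs 5′ to 3′ from 20 bases before to 20 bases after the start in RefSeq (GRCm38.p6), and capitals mark a 5′ TOP tract, meaning a C at the start base followed by at least 4 pyrimidines. Rps18 (chr17:33955646-33955685, minus strand) and Rpl35 (chr2:39005112-39005151, minus strand) were downregulated at E11.5 and hold the tract. Rps16 (chr7:28350669-28350708, plus strand) and Rpl18 (chr7:45718051-45718090, plus strand) were downregulated too and hold none at that base. In Rpl18, however, a C followed by a run of pyrimidines begins at the very next base. Rps27 (chr3:90213629-90213668, minus strand) and its intronless copy Rps27rt (chr9:114982720-114982759, minus strand) show why reads of a parent and a copy are hard to separate.
Rps18: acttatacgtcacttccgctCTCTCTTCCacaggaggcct
Rpl35: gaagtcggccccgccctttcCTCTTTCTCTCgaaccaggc
Rps16: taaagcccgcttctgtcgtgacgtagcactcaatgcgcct
Rpl18: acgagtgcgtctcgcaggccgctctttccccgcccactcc
Rps27: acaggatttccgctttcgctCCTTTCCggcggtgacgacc
Rps27rt: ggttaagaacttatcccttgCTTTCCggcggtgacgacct
The bases before the start differ between Rps27 and Rps27rt, while an identical run of 38 bases begins at the second base of Rps27 and the first base of Rps27rt.

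Of the 93 members, 65 had an entry in the RefSeq promoter table. A 5′ TOP tract at the annotated start was found in 14 of them (21.5%), against 3.01% of all 27025 genes in the table. When the tract could begin within 5 bases of the start, 30 members (46.2%) and 21.2% of all genes held it. Only the sense strand was read. Among the members called lower in E11.5 vs. E10.5, 11 were in the table and 2 had the tract at the start. Among those tested and not called, 51 were in the table and 12 had it. A start annotated a few bases off hides the tract, so its absence says only that these letters were not at that base. Rps27a and Rpl30 were not in the table.

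Total counts per library were 16581009 to 20836804, and CPM, a gene's counts relative to the library total, were scaled by TMM over all 9 libraries. All 10 facial mesenchyme markers were above 1 CPM in every library. The libraries of a stage were not equally alike. At E10.5, replicate 3 stood apart. Its summed facial mesenchyme markers were at 1286 CPM, against 2005 and 2051 CPM in replicates 1 and 2, and its endothelial markers were at 141 CPM against 392 and 374 CPM. Its 10 markers of cycling cells summed to 5773 CPM against 4137 and 4234 CPM. Its epithelial markers were at 874 CPM against 470 and 527 CPM. Its neural and eye field markers were at 520 CPM against 426 and 391 CPM, and its cartilage and bone markers at 616 CPM against 926 and 1044 CPM. Across 16375 genes, the ratio of replicate 3 to replicate 1 fell with the GC content of the transcript (Spearman's rho -0.56), and over 86 members with a transcript rho was -0.44. At E12.5, replicate 2 was low and replicate 3 high in ribosomal protein mRNA, as given next. The ratio of replicate 3 to replicate 2 fell with gene length over all genes (rho -0.54) and with transcript length over the members (rho -0.37). These are descriptions across genes, which share libraries and are not independent.

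The members took 5.54%, 5.31% and 6.34% of all counts in the E10.5 libraries. They took 4.15%, 4.81% and 4.68% at E11.5, and 5.71%, 4.36% and 7.39% at E12.5. The mean share was 5.73% ± 0.54 (SD, n = 3) at E10.5, 4.54% ± 0.35 (SD, n = 3) at E11.5 and 5.82% ± 1.52 (SD, n = 3) at E12.5. All E11.5 libraries therefore lay below all E10.5 libraries, whereas E12.5 ran from below the middle of E11.5 to above all other libraries. The small-subunit genes took 2.28% to 2.78% of counts at E10.5, then 1.79% to 2.07% and, in the last stage, 1.90% to 3.32%. The Rpl and Rplp genes took 3.03% to 3.57%, 2.35% to 2.73% and 2.46% to 4.08%. In bulk tissue, fewer cells of a type and less RNA per cell cannot be told apart.

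**Figure D1:**
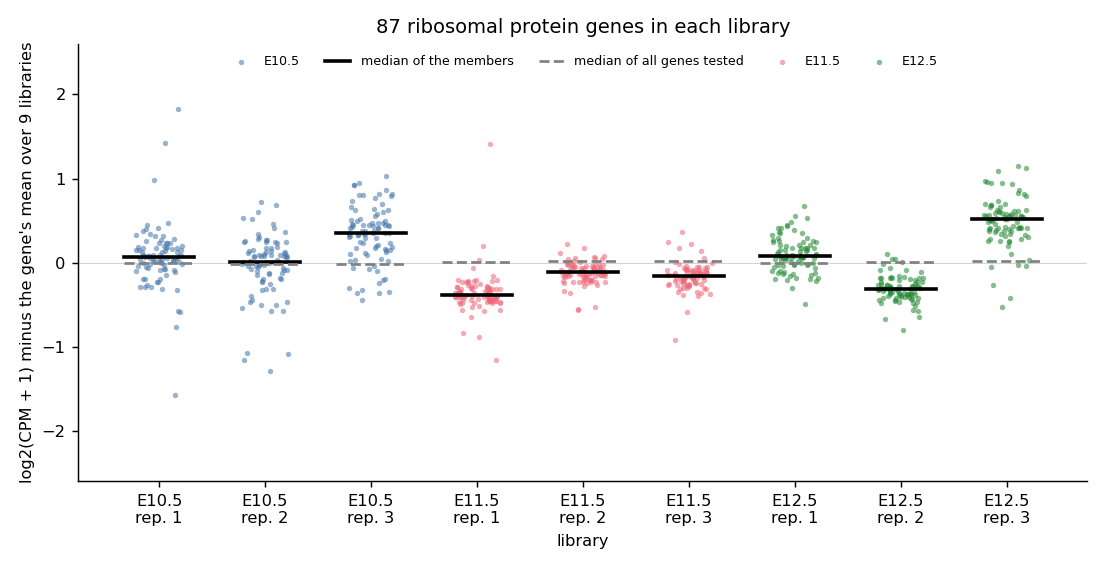
Each point is 1 of the 87 members tested, plotted as log2(CPM + 1) minus that gene's mean over the 9 libraries (y axis) in each library (x axis), with the median of the members (solid) and of all 16375 genes tested (dashed). The members' medians were -0.38, -0.12 and -0.16 in the E11.5 libraries, all below the E10.5 libraries (0.01 to 0.35), while the E12.5 libraries ran from -0.32 to 0.52.

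The genes moved together from library to library. On the scale of log2(CPM + 1) around each gene's own mean, 74 of 87 members tested were above their mean in E10.5 replicate 3, and 81 were above it in E12.5 replicate 3. Only 3, 12 and 7 members were above their mean in the 3 E11.5 libraries, and 4 in E12.5 replicate 2. The medians of all genes stayed between -0.01 and 0.02 in these libraries. By stage mean, 79 of the 87 members were lowest at E11.5, compared with 22.9% of all 16375 genes and with 57 of 77 mitochondrial ribosomal protein genes, which serve a separate ribosome. The members share the same libraries, so these counts describe 9 libraries and not 87 independent genes.

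Levels between genes were compared per length, as CPM per kb of the shortest principal transcript, for the 86 tested members with such a transcript. The median was 770 CPM per kb and the quartiles were 417 and 1100 CPM per kb. The highest were Rplp1 (2323 CPM per kb, range over 9 libraries 1577 to 3343), a stalk protein, and Rpl41 (2168 CPM per kb, 1498 to 3710), which encodes a very small peptide of the large subunit. Rps14 (1622 CPM per kb, 1165 to 2499), Rplp0 (1534 CPM per kb, 1216 to 2035) and Rpl13 (1524 CPM per kb, 1087 to 2272) followed. The ranges of these 5 neighbours overlapped, so their order did not exceed the spread. Ribosomal proteins are mostly present at 1 copy per ribosome, yet 7 members were below 100 CPM per kb. Of these, 3 were -ps rows, namely Rpl9-ps6 (45.5 CPM per kb), Rpl10-ps3 (3.76 CPM per kb) and Rpl36a-ps1 (2.52 CPM per kb). The other 4 were Rpl13a (67.1 CPM per kb), Rps10 (14.0 CPM per kb), Rpl24 (3.13 CPM per kb) and Rpl36al (1.97 CPM per kb). All 4 had at least 20% of their exon length inside another annotated gene (35.4%, 28.7%, 47.0% and 24.5%), and the overlapping rows Gm45713, RPS10-NUDT3, Gm28037 and Gm49383 held 0 counts in all 9 libraries, although Gm15420, which also overlaps Rps10, held 3. Over all members, 12 had such an overlap, and the other 8 were not below 100 CPM per kb. How reads lying in 2 annotated genes were treated is not given in the sources used here, and its part in these low values was not tested.

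**Figure D2:**
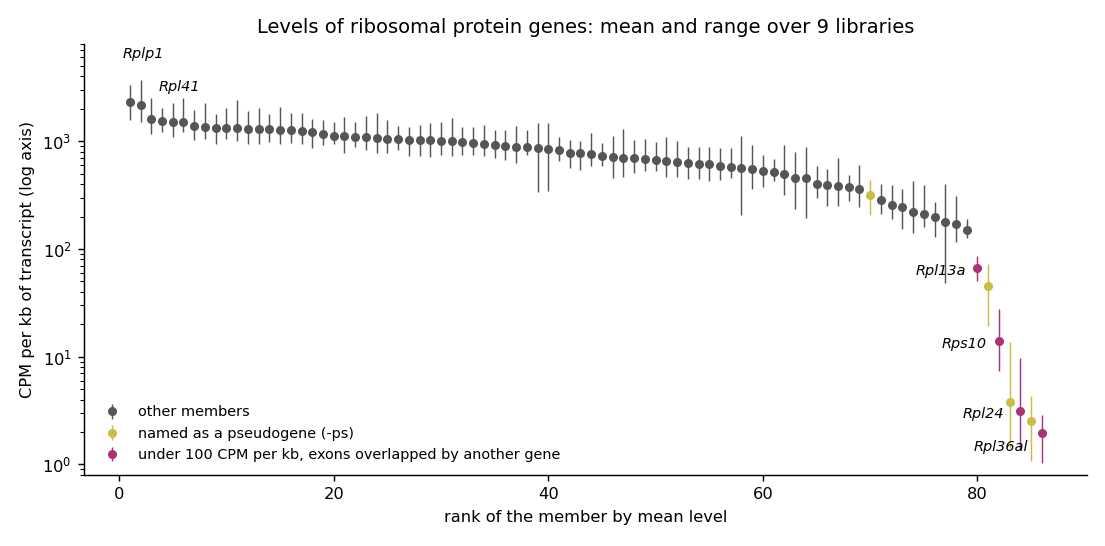
Mean level of the 86 members in CPM per kb of transcript (log axis) against their rank, with bars from the lowest to the highest of 9 libraries. Of the 7 members under 100 CPM per kb, 3 are named as pseudogenes and 4 have exons overlapped by another gene.

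Reads were also found on the pseudogenes themselves. The table holds 290 pseudogene rows named after a member, and 170 had at least 1 count. They took 2.98% to 3.78% of the counts on members and named pseudogenes together, and this share was 2.98% to 3.35% at E10.5, then 3.21% to 3.29% and, in the last stage, 3.35% to 3.78%. The share on named pseudogenes was uneven between genes: for 8 members more than 10% of the counts of gene and named pseudogenes lay on the pseudogenes. For Rps10, a small-subunit gene mutated in Diamond-Blackfan anemia, 96.5% did, and Rps10-ps2 alone held 28250 counts against 1111 on Rps10. For Rpl17 the share was 65.4%, for Rpl21 46.7% and for Rpl7a 17.1%. Pseudogenes with other names are not in these shares, so the 8 members are not all that are affected. Gm9794, which shares windows with Rpl23, held 24308 counts against 63727 on Rpl23. Gm10275, which shares windows with Rpl12, held 30722 counts against 127507 on Rpl12. The 100-base windows of the members' transcripts gave a further limit: a median of 45.3% of them occurred in the transcripts of another gene. In 42 members over 50% of windows did so, and 11 had none. Some of these windows lie in a gene that overlaps the member, such as Gm45713 for Rpl13a and Fam69a for Rpl5. For these the gene is uncertain and not the place in the genome. Reads in windows held by a separate copy cannot be placed from their sequence alone. The window shares do not separate overlaps from copies. Unannotated copies were not searched, so reads on them are in none of these shares.

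In E11.5 vs. E10.5, of the 87 members tested, 20 were downregulated and 0 upregulated at an adjusted p of at most 0.05 (edgeR's quasi-likelihood test, Benjamini-Hochberg over 15708 genes), where 5.58% of all genes tested were called lower and 6.19% higher. At an unadjusted p under 0.05, 44 members were lower and 0 higher, and DESeq2 called 29 lower and 0 higher. The share of all genes was not taken for these counts. The median log2 fold change of the members was -0.39, against -0.03 over all genes, and 81 of 87 estimates were negative. In 49 members all E11.5 libraries were below all E10.5 libraries, which held for 16.7% of all genes, and in 0 they were all above, which held for 19.8%. Of the called members 8 were Rps and 12 Rpl or Rplp genes, with medians of -0.39 in the small subunit and -0.40 in the large subunit. Of 18 listed genes linked to Diamond-Blackfan anemia, 5 fell, with Rpl11, Rpl18, Rpl27 and Rpl35 among them. Of 10 listed members with mouse mutants, which are not all such members, 2 fell (Rps20 and Rpl24, a row with few counts).

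The number of calls depended on single libraries. Without E10.5 replicate 3, 52 members were lower, among them all 20, and 6 were higher (Rpl36a, Rpl9-ps6, Rps21, Rps27rt, Rps28 and Rps29), with 20% of all genes lower and 19.6% higher. Without E11.5 replicate 1 there was 1 call, and 2 were made when E11.5 replicate 3 was left out. Leaving out E10.5 replicate 1 gave 6 calls, leaving out E10.5 replicate 2 gave 7, and leaving out E11.5 replicate 2 gave 6. For these fits the share of all genes called was not taken, so the drop is not shown to be particular to the members. The median of the members stayed between -0.50 and -0.26. Over the same interval 8 of 10 neural and eye field markers were lower, against 5.58% of all genes, and their summed level was 391 to 520 CPM at E10.5 and 201 to 228 CPM at E11.5. Of 10 facial mesenchyme markers 4 were higher, 1 was lower and 5 did not pass, and they summed to 1286 to 2051 CPM and then 2728 to 2905 CPM. No gene of either list was at 0 in all libraries, and 7 of the 10 neural and eye field markers were above 1 CPM in every library. Their part in the fall of the members was not tested.

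When a log2 fold change beyond 1 in either direction was also required (DEGs), 4 members were lower and 0 higher in E11.5 vs. E10.5, against 2.61% and 3.46% of all genes. Rps27a (ENSMUSG00000020460, chromosome 11, 29545846-29548109, minus strand, GRCm38) encodes a fusion of ubiquitin with a small-subunit protein, and is thus a source of both. Its CPM was 574, 695 and 855 at E10.5, 217, 338 and 258 at E11.5, and 714, 353 and 935 at E12.5. All E11.5 libraries were the lowest of the 9, although E12.5 replicate 2 was only just above them. The log2 fold change was -1.41 ± 0.20 (SE, adjusted p = 0.00504) in E11.5 vs. E10.5 and 1.31 ± 0.29 (SE, adjusted p = 0.0167) in E12.5 vs. E11.5. It was -0.09 ± 0.31 (SE, adjusted p = 0.863) in E12.5 vs. E10.5. The first call was kept when each of the 6 libraries was left out in turn, with an adjusted p of at most 0.0385, and the second was kept in 3 of 6 such fits.

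Rpl30 (ENSMUSG00000058600, chromosome 15, 34440505-34443640, minus strand) encodes a large-subunit protein. Its CPM was 329, 316 and 449 at E10.5, 133, 192 and 192 at E11.5, and 261, 232 and 240 at E12.5. The 3 stages did not overlap in their libraries, with E12.5 between the others. The log2 fold change was -1.10 ± 0.19 (SE, adjusted p = 0.0101) in E11.5 vs. E10.5, 0.51 ± 0.15 (SE, adjusted p = 0.0540) in E12.5 vs. E11.5 and -0.58 ± 0.19 (SE, adjusted p = 0.0460) in E12.5 vs. E10.5. The first call was lost without E11.5 replicate 1 (adjusted p = 0.0523), and the last in every fit that left a library out. A copy of the gene went the other way. Gm12191, a processed pseudogene that holds 32.5% of the windows of Rpl30, was at 5.74, 5.01 and 11.4 CPM at E10.5, 28.9, 34.1 and 24 CPM at E11.5, and 12.1, 9.85 and 63.3 CPM at E12.5. All its E11.5 libraries were above E10.5, the reverse of Rpl30. When the 4 other rows with at least 100 counts that share windows with Rpl30 were added to it, the sum was 340, 328 and 472 CPM at E10.5, 201, 259 and 245 CPM at E11.5, and 281, 252 and 371 CPM at E12.5. E11.5 was still below E10.5 in the sum, while E11.5 and E12.5 then overlapped. With the 9 named pseudogenes added, the log2 fold change in E11.5 vs. E10.5 was -0.88 ± 0.17 (SE, adjusted p = 0.0156).

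The other 2 DEGs had few counts. Rpl24, whose mouse mutant has pigment and skeletal defects, was at 6.56, 2.59 and 2.03 CPM at E10.5, 1.03, 0.92 and 1.22 CPM at E11.5, and 1.94, 1.79 and 0.96 CPM at E12.5. The E10.5 libraries were higher, replicate 1 most of all, and its log2 fold change was -1.84 ± 0.47 (SE, adjusted p = 0.0436). The row had 335 counts in total and overlaps Gm28037, as given above. Rpl10-ps3, an intronless copy of Rpl10, was at 10.5, 4.37 and 2.46 CPM at E10.5, 1.46, 1.21 and 1.17 CPM at E11.5, and 2.22, 1.08 and 1.44 CPM at E12.5. It fell by 2.20 ± 0.52 on the log2 scale (SE, adjusted p = 0.0324), and 95.8% of its windows lie in other genes.

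**Figure D3:**
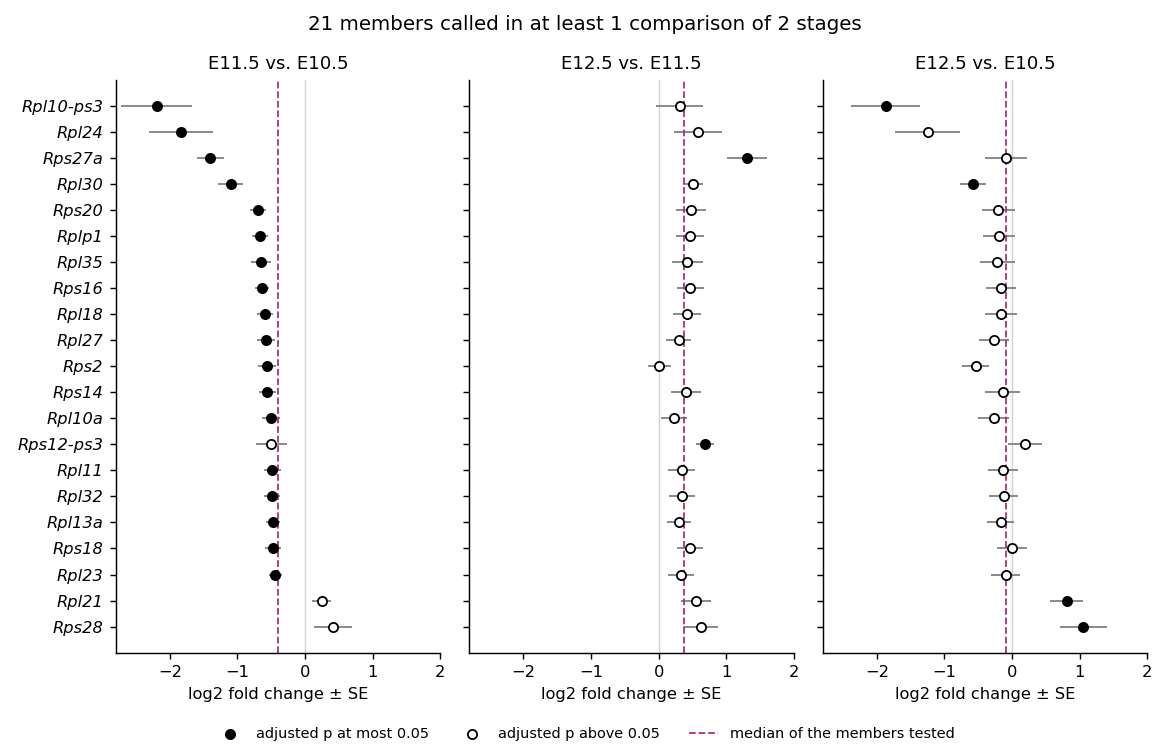
Log2 fold change with SE (x axis) of 21 members called in at least 1 comparison (y axis), in the 3 comparisons, with filled points for an adjusted p of at most 0.05 and a dashed line at the median of the 87 members tested. Filled points lie left of 0 in E11.5 vs. E10.5 (18 of the members shown), and most of the same genes are unfilled and right of 0 in E12.5 vs. E11.5.

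Members with more counts and smaller falls made up most of the rest, from which Rplp1 and Rps16 were picked after their values were seen. Rps20 (ENSMUSG00000028234), of which 5.91% of windows lie elsewhere, was at 883, 836 and 916 CPM at E10.5, 476, 602 and 574 CPM at E11.5, and 778, 494 and 1021 CPM at E12.5. It fell by 0.69 ± 0.12 on the log2 scale (SE, adjusted p = 0.00998) in E11.5 vs. E10.5. Its windows come from a transcript of 3706 bases, and those found elsewhere lie in the processed pseudogene Gm4332. Gm4332 held 11902 counts against 116600 on Rps20. The log2 fold change of Gm4332 in the same interval was -0.67 ± 0.13 (SE, adjusted p = 0.0172). Rplp1 (ENSMUSG00000007892) was at 1286, 1354 and 1506 CPM, then 787, 948 and 913 CPM, then 1117, 853 and 1668 CPM, a fall of 0.67 ± 0.12 on the log2 scale (SE, adjusted p = 0.0112) in the first interval. Rps16 was at 674, 682 and 737 CPM, then 415, 479 and 465 CPM, then 615, 435 and 826 CPM. Its log2 fold change was -0.64 ± 0.10 (SE, adjusted p = 0.00789) in E11.5 vs. E10.5. In Rps20, Rplp1 and Rps16 the first 2 stages did not overlap, whereas E12.5 overlapped both. The calls of all 3 were lost when E11.5 replicate 1 or E11.5 replicate 3 was left out. Among the other called members, the log2 fold change was -0.65 for Rpl35 and -0.44 for Rpl23, both of the large subunit.

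E12.5 vs. E11.5 had estimates in the other direction and few calls. Of 87 members, 2 were upregulated and 0 downregulated, where 7.61% of all 15808 genes were called higher and 4.57% lower, so both counts were below the background. The median log2 fold change was 0.37, against 0.02 over all genes, and 84 of 87 estimates were positive. At an unadjusted p under 0.05, 24 members were higher and 1 lower, and DESeq2 called 4 higher and 0 lower. These counts, too, have no share of all genes beside them. In 8 members the stages did not overlap with E12.5 higher, and in 1 with E12.5 lower, against 17.9% and 17.4% of all genes. Besides Rps27a, the only DEG (4.14% of all genes were DEGs in this direction), Rps12-ps3 rose. All 395 windows of this intronless row lie in Rps12, a small-subunit gene, so its reads are uncertain. It was at 183, 101 and 205 CPM at E10.5, 114, 119 and 118 CPM at E11.5, and 185, 162 and 216 CPM at E12.5, and its log2 fold change was 0.68 ± 0.13 (SE, adjusted p = 0.00706). The 3 E11.5 values were nearly equal and below all E12.5 values. Without E12.5 replicate 2, 60 of 88 members tested were higher and 0 lower, where 15.2% and 15.5% of all genes were called. With this library kept and all genes of at least 1 count in the fit, 33 members were higher, against 6.18% of all 28297 genes. The count thus moved with the library and with the filter, and the cause was not tested.

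E12.5 vs. E10.5 left little net difference. Of 87 members, 2 were upregulated and 2 downregulated, where 14.0% of all 15899 genes were called higher and 10.5% lower. The median log2 fold change was -0.09, against -0.01 over all genes, and it turned to 0.13 without E12.5 replicate 2 and to 0.08 without E10.5 replicate 3. The stages did not overlap in 1 member with E12.5 higher and in 5 with E12.5 lower, against 22.6% and 19.8% of all genes. DEGs were Rps28 and Rpl10-ps3, 1 in each direction, against 9.97% and 5.08% of all genes. Rps28, a small-subunit gene, was at 74.7, 52.8 and 122 CPM at E10.5, 91.9, 122 and 124 CPM at E11.5, and 180, 99.3 and 241 CPM at E12.5. Its first and last stages overlapped, and its log2 fold change was 1.06 ± 0.35 (SE, adjusted p = 0.0461). Rpl21, a large-subunit gene, was at 124, 105 and 118 CPM at E10.5, 119, 164 and 135 CPM at E11.5, and 195, 135 and 280 CPM at E12.5. All E12.5 libraries were above E10.5, and the log2 fold change was 0.81 ± 0.24 (SE, adjusted p = 0.0335). With the counts of its 15 named pseudogenes added it was 0.37 ± 0.23 (SE, adjusted p = 0.285), so that call was lost when reads on the copies were included. Rpl10-ps3 had a log2 fold change of -1.87 ± 0.51 (SE, adjusted p = 0.0216), and Rpl30 is given above. Each of the 4 was lost in at least 3 of the 6 fits that left a library out, and all 4 were lost without E10.5 replicate 1.

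**Figure D4:**
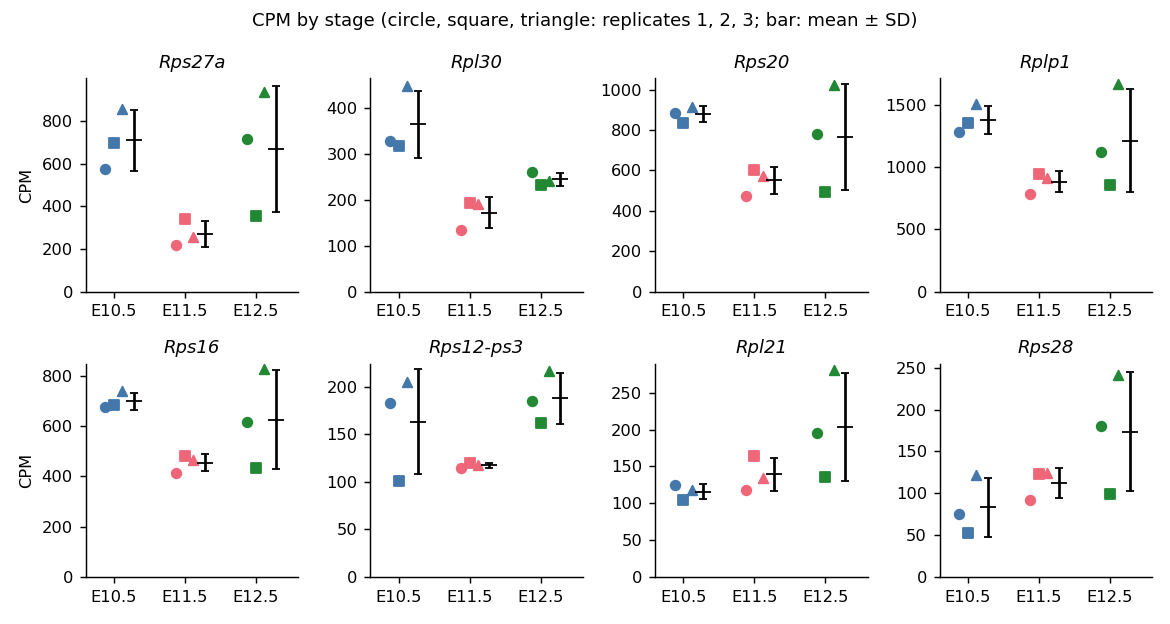
CPM (y axis, from 0) of 8 called members by stage (x axis), with a symbol for each replicate and the mean ± SD of 3 libraries. The E11.5 libraries are the lowest for Rps27a and Rpl30 and are below E10.5 for Rps20, Rplp1 and Rps16, and the triangle and square at E12.5 (replicates 3 and 2) lie far apart in all but Rpl30 and Rps12-ps3.

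Whether the successive intervals differed was tested directly, as the departure of E11.5 from the mean of E10.5 and E12.5 on all 9 libraries. Of 87 members, 2 were called below and 0 above, where 0.562% of 16375 genes were called below and 0.623% above. These were Rps27a (-1.36 ± 0.27 log2, SE, adjusted p = 0.0334) and Rpl30 (-0.81 ± 0.16 log2, SE, adjusted p = 0.0334). With the share of all genes not taken for these counts, 34 members were below and 0 above at an unadjusted p under 0.05. DESeq2 called the same number as edgeR, 2 below and 0 above. Both calls were lost in each fit that left out an E11.5 library, E12.5 replicate 1 or E12.5 replicate 3, and 9 members were called below without E12.5 replicate 2. The median departure was -0.38 log2, against -0.01 over all genes, and 84 of 87 estimates were negative. For the 77 mitochondrial ribosomal protein genes tested the median was -0.19 log2, with 0 called. In the test of the 3 stages together, 7 members were called (Rpl10-ps3, Rpl21, Rpl24, Rpl30, Rps10, Rps2 and Rps27a), against 28.3% of all genes. The direction for Rps10 depended on its copies. Its log2 fold change in E12.5 vs. E10.5 was -0.94 ± 0.34 (SE), and 0.40 ± 0.20 (SE) with its named pseudogenes added, and neither passed.

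Paralogs replace a ribosomal protein in some tissues, and they were compared with their partners per length within each library. Rpl22l1 made up 14.4%, 15.5% and 22.4% of Rpl22l1 and Rpl22 together at E10.5, 18.7%, 15.4% and 16.5% at E11.5, and 19.3%, 18.5% and 18.6% at E12.5. The stages overlapped. Rps27l made up 26.9%, 38.8% and 22.4% of Rps27l and Rps27 at E10.5, 26.5%, 20.9% and 15.6% at E11.5, and 15.6%, 15.3% and 15.6% at E12.5. The E10.5 values were all above E12.5, but the partner varied most: Rps27 was at 212, 119 and 507 CPM at E10.5, 149, 241 and 310 CPM at E11.5, and 362, 268 and 486 CPM at E12.5. Rps27rt was at 18.1, 48.6 and 68.8 CPM at E10.5, 151, 58.8 and 42.0 CPM at E11.5, and 39.3, 47.3 and 123 CPM at E12.5. Of the windows of Rps27, 242 of 246 also occur in other transcripts, which here were Rps27rt and Gm17241. Summed over both rows, the level was 230.0, 167 and 576 CPM at E10.5, 299, 300.1 and 352 CPM at E11.5, and 401, 315 and 609 CPM at E12.5. The sum was closer together than either row at E11.5 but not at the other stages. None of Rpl22l1, Rps27l, Rps27rt, Rpl7l1 and Rpl36al, and none of the partners Rpl22, Rps27, Rpl3, Rpl7, Rpl10, Rpl39, Rpl36a and Rps4x, was called in a comparison of 2 stages.

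Rpl39l, a paralog known from testis and some cancers, was counted almost entirely at E12.5, at a very low level. Over the 3 libraries of a stage it had 6 counts (E10.5), 5 counts (E11.5) and 56 counts (E12.5), or 1.44, 0.49 and 1.26 CPM at E12.5 against at most 0.18 CPM in the other libraries. All E12.5 libraries were above all others, and 3 counts, the limit taken for detection, equal 0.177 CPM in E10.5 replicate 1. Per total count, E12.5 was 9.46 times E10.5 (95% counting interval 4.09 to 26.9) and 12.6 times E11.5 (5.09 to 40.3). The row was removed by the low-count filter. In the fit with all genes of at least 1 count, the log2 fold change was 3.09 ± 0.74 (SE, adjusted p = 3.97e-04) in E12.5 vs. E10.5. Even then Rpl39l was 0.40% ± 0.12 (SD, n = 3) of Rpl39l and Rpl39. None of its windows was found in another transcript. Rpl36al was 0.21% to 0.54% of Rpl36al and Rpl36a in all libraries. Rpl3l and Rpl10l, known from muscle and testis, had 0 counts in all libraries, as did Rpl9-ps1 and Rpl36-ps4, and Rpl13a-ps1 had 1 count in all.

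**Figure D5:**
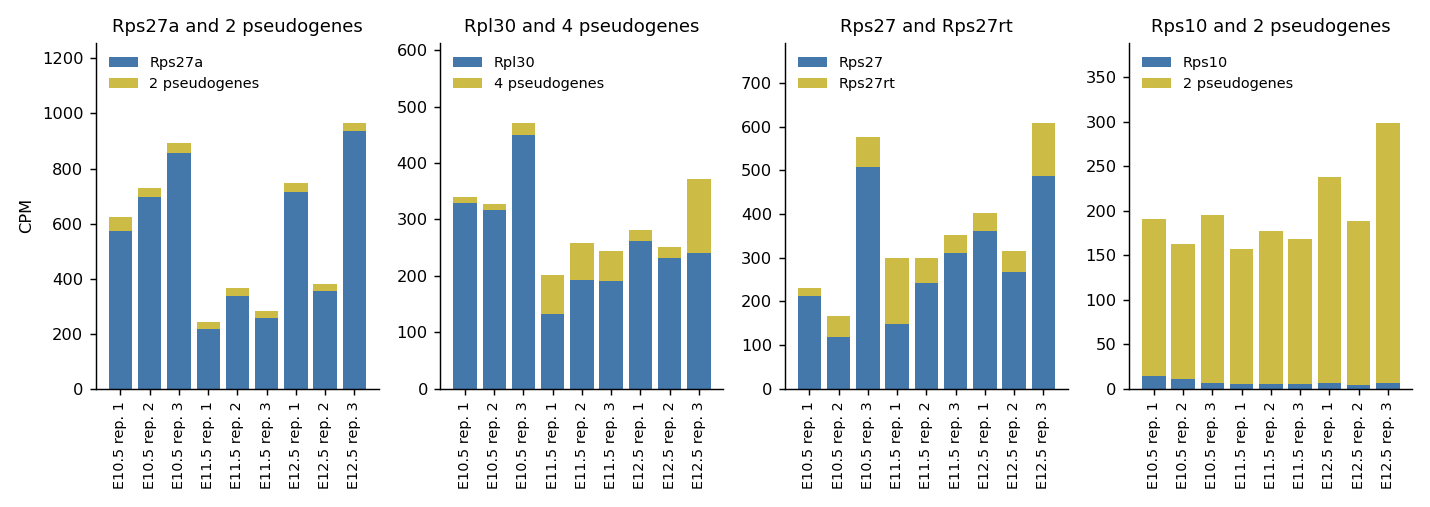
Stacked CPM (y axis, from 0) in each of the 9 libraries (x axis) of 4 members (blue) and of the other rows with at least 100 counts that share 100-base windows with them (yellow). The sums of Rps27a and Rpl30 stay lower at E11.5 than at E10.5, Rps27 and Rps27rt divide a sum of 299 to 352 CPM at E11.5 unevenly, and for Rps10 nearly all counts are on pseudogenes.

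Other genes of protein synthesis were set beside the members. Fau and Rack1 encode ribosomal proteins outside the naming rule, and neither was called. Rack1 was at 1417, 1385 and 1742 CPM, then 1175, 1289 and 1267 CPM, then 1291, 1219 and 1846 CPM, with a log2 fold change of -0.30 ± 0.12 (SE, adjusted p = 0.149) in E11.5 vs. E10.5. Of 16 translation factors with TOP mRNAs, 0 were called in E11.5 vs. E10.5 (median log2 fold change -0.29), and 1 was lower in E12.5 vs. E10.5, the poly(A)-binding protein gene Pabpc1 (-0.59 ± 0.17 log2, SE, adjusted p = 0.0285). A separate list held 68 ribosome biogenesis genes, which include rRNA processing factors and RNA polymerase I subunits. Of these, 26 were lower in E11.5 vs. E10.5, 4 in E12.5 vs. E11.5, and 33 between the outer stages. In each, 0 were higher, and 5.58%, 4.57% and 10.5% of all genes were lower. The 4 in the second interval were thus near the share over all genes. The medians of the 68 ribosome biogenesis genes were -0.46, -0.07 and -0.55 log2, beside -0.39, 0.37 and -0.09 for the members. Mdn1, an ATPase of large-subunit assembly, was at 183, 213 and 171 CPM, then 130, 127 and 118 CPM, then 71.4, 102 and 49.9 CPM, and it fell in both intervals. Heatr1, a small-subunit processing factor, was at 141, 163 and 190 CPM, then 112, 109 and 108 CPM, then 63.5, 91.7 and 57.9 CPM. The markers of cycling cells summed to 4137 to 5773 CPM at E10.5, 3924 to 4225 CPM at E11.5 and 2993 to 3153 CPM at E12.5, and their part was not tested.

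Of 14 regulators of ribosomal protein synthesis, 3 were lower in E11.5 vs. E10.5, 2 in E12.5 vs. E11.5 and 3 between the outer stages, with 0 higher in each, and the other 11, 12 and 11 did not pass. Over all genes 5.58%, 4.57% and 10.5% were lower. The median log2 fold changes of the list were -0.12, -0.23 and -0.43. Mycn, a transcription factor that drives ribosomal genes, was at 130, 153 and 123 CPM at E10.5, 78.0, 95 and 87.6 CPM at E11.5, and 63.1, 57.9 and 58.9 CPM at E12.5. It was downregulated without overlap in both intervals, and its log2 fold change was -1.18 ± 0.17 (SE, adjusted p = 5.99e-04) in E12.5 vs. E10.5. Its relative Myc was at 45.2, 60.3 and 46.0 CPM, then 28.6, 32.8 and 30.1 CPM, then 38.8, 37.3 and 41.2 CPM. Myc fell by 0.75 ± 0.14 on the log2 scale (SE, adjusted p = 0.0145) in E11.5 vs. E10.5, and its later log2 fold change was 0.36 ± 0.12 (SE, adjusted p = 0.0787). Larp1, which binds TOP mRNAs, had a log2 fold change of -0.60 ± 0.19 (SE, adjusted p = 0.0413) in E12.5 vs. E10.5, and Eif4ebp2, a translation repressor under mTOR, one of -0.63 ± 0.18 (SE, adjusted p = 0.0284). Mtor was at -0.60 ± 0.20 (SE, adjusted p = 0.0534) and did not pass. Tcof1, Polr1c and Polr1d, the genes of Treacher Collins syndrome, were called in no comparison, with log2 fold changes of -0.54, -0.25 and -0.10 in E12.5 vs. E10.5. Of 77 mitochondrial ribosomal protein genes tested, 3 were lower in E11.5 vs. E10.5 and 1, Mrps18b, in E12.5 vs. E10.5, fewer than the 5.58% and 10.5% of all genes called lower. Their median log2 fold changes were -0.22, 0.15 and -0.06.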

How the data were processed

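RNA from 9 pools of lambdoidal junction tissue, 3 per stage, was sequenced after a TruSeq preparation that does not mark strand. The authors aligned reads with HISAT2 (2.0.5) to mm10 and counted them per gene, and the deposited raw counts were used. How reads that match several places or genes were treated is not given in the sources used here. The deposited table also holds FPKM values, gene lengths, and fold changes with p-values from the authors' own comparisons, of which none was used for a result. Groups followed the stage in the labels. Genes were filtered with filterByExpr, scaled by TMM and tested with edgeR's quasi-likelihood test (4.0.16, R 4.3.3) on the 6 libraries of each pair or, for the 3 stages together and the departure of E11.5, on all 9. Benjamini-Hochberg adjustment ran over all genes, an adjusted p of at most 0.05 was a call, and a DEG also changed by at least 1 on the log2 scale. SE is the log2 fold change divided by the root of F. Transcripts for lengths, GC content and shared windows came from GENCODE of the same build, and promoters from RefSeq (GRCm38.p6). The scripts were tested on simulated counts. DESeq2 (1.42.0), other scalings, filters, trends removed and libraries left out were alternatives. Named genes were the DEGs, the largest called changes without overlap, paralogs and partners, the 5 highest and lowest per kb, untested members and the largest changes in the pathway lists. Results for a few single genes are not reported here. The members, lists and tests were chosen with earlier results of these data known. Pools were separate samples by label, so p-values measure the spread between pools, and counting limits cover counting error only.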

Additional observations from a re-analysis of the deposited data

Results flagged for a closer look

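For 2 members the step from E10.5 to E11.5 and the step from E11.5 to E12.5 differed, tested as the departure of E11.5 from the mean of its neighbours. The departure was -1.36 log2 for Rps27a and -0.81 log2 for Rpl30, each with an adjusted p of 0.0334 (edgeR's quasi-likelihood test over all genes). For Rps27a, a fusion with ubiquitin, the E11.5 libraries were the 3 lowest of 9, and adding its named pseudogenes left the first step at -1.39 log2 (adjusted p = 0.00510). For Rpl30 the same addition took the first step from -1.10 to -0.88 log2 (adjusted p = 0.0156). The departures themselves were less firm: 1 of the 2 calls was left with named pseudogenes added, and both were lost in every fit that left out an E11.5 library, E12.5 replicate 1 or E12.5 replicate 3. Groups of 3 libraries were too small to test for a single outlying sample.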

How the results depend on the processing

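The share of counts on the members moved by less than the SD between libraries of a stage under other totals and with named pseudogenes added. Leaving out a library cannot move a mean of 3 libraries by as much as their SD, so it gave no such check. With 1 library left out, the median log2 fold change kept its sign in both successive intervals but not in E12.5 vs. E10.5. Leaving out 1 library at a time gave shares from 5.43% to 5.94% (E10.5), from 4.41% to 4.74% (E11.5) and from 5.04% to 6.55% (E12.5), and medians of -0.50 to -0.26 in E11.5 vs. E10.5, 0.13 to 0.55 in E12.5 vs. E11.5 and -0.28 to 0.13 in E12.5 vs. E10.5. Counts of called members were less steady, and the share of all genes in the same fit was taken for few of them. For E11.5 vs. E10.5 there were 0 to 6 higher and 1 to 52 lower. For E12.5 vs. E11.5 there were 1 to 60 higher and 0 to 0 lower. For E12.5 vs. E10.5 there were 0 to 6 higher and 0 to 4 lower. Calls over the 3 stages ranged from 4 to 38, and departures from 0 to 0 above and 0 to 9 below.

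In E11.5 vs. E10.5, with 20 lower, the count was 3 at an adjusted p of at most 0.01, 4 with all 9 libraries in 1 fit and 34 with the GC trend removed. In E12.5 vs. E11.5, with 2 higher, it was 1 at 0.01, 4 with DESeq2, 33 with all genes of at least 1 count and 1 with all 9 libraries, and removing the length trend gave 1 lower. In E12.5 vs. E10.5, with 2 higher, it was 0 at 0.01, 7 with all genes, 1 with the length trend removed and 1 with pseudogenes added. With 2 lower, it was 0 at 0.01, 1 with upper quartile scaling, 6 with DESeq2, 5 with all genes, 1 when every library needed at least 10 counts, 6 with all 9 libraries, 4 with the GC trend removed, 5 with the length trend removed and 1 with pseudogenes added. Over the 3 stages, with 7 called, it was 3 at 0.01, 14 with DESeq2, 35 with all genes, 11 with the GC trend removed and 11 with the length trend removed. For the departure, with 2 below, it was 0 at 0.01, 12 below and 1 above with all genes, and 1 with pseudogenes added. Except where given above, the share of all genes called was not taken for these settings or for the replicate block. The cause was not tested.

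Pairing by replicate number was not clear over all stages. Same-numbered libraries had correlations of deviations from -0.15 to 0.22 over 9 pairs, and the best match had the same number in 8 of 18 choices. The 3 same-numbered pairs of E10.5 and E12.5 were all positive (0.18, 0.07 and 0.22). Those of E10.5 and E11.5 (-0.01, 0.02 and -0.01) and of E11.5 and E12.5 (-0.05, -0.15 and 0.07) had both signs. The main fits did not use the replicate number. With the replicate block the counts were 8 lower in E11.5 vs. E10.5, 4 higher in E12.5 vs. E11.5, 5 higher and 4 lower in E12.5 vs. E10.5, and 14 over the 3 stages. With the block and the GC trend removed, 1 was higher in E11.5 vs. E10.5, 7 higher and 7 lower in E12.5 vs. E10.5, and 19 were called over the 3 stages.

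Of 1594 values of named members under alternatives, 1475 kept their side of the threshold, 66 became called and 53 lost their call. The estimate changed sign in 54. Most of the 1594 belong to comparisons in which the member was not called in the main fit. The 1475 therefore do not measure how steady the calls were. With 3 pools per stage and reads divided between genes and copies, small differences were not detectable here.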
